A study of Mus musculus with 4 samples.

Results

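The transcripts described here encode the proteins of the cytosolic ribosome and their paralogues. They were measured in GFP-positive cells sorted from mouse testes at postnatal day 18. They were picked by gene name, as every row whose symbol began with Rpl, Rps or Rplp and a digit, leaving out the ribosomal S6 kinases. The rule took 94 of the 24411 rows listed for every library. Of these, 46 were core genes of the large 60S subunit, 30 were core genes of the small 40S subunit, 10 were paralogues, 7 carried pseudogene names, and 1, Rps19bp1, encodes a protein that binds a ribosomal protein rather than a ribosomal protein. Rpsa and Fau encode ribosomal proteins under other names and were read beside them.

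The comparison asked how the meiotic prophase transcriptome differs when the zinc-finger protein ZFP541 is lost. Control libraries came from 2 Zfp541+/- testes and the other libraries from 2 testes labelled Zfp541 KO, each library from a separate testis. All 4 animals carried Rec8-3xFLAG-HA-p2A-GFP, a knock-in that puts GFP under the control of the meiotic cohesin gene Rec8, and the strain label was C57BL/6 and CBA mixed. According to the submitters, 1 control was heterozygous for the knock-in and 1 homozygous, whereas both animals labelled Zfp541 KO were homozygous. Which control library was which is not given in the sources used here, and this difference between the controls cannot be told apart from the other differences between them. The KO allele lacks a large run of exons from the first exon on, and the controls carry it on 1 chromosome.

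A ribosome needs each core protein in about equal number, and cells commonly hold the mRNAs of these proteins at high and coordinated levels. Growth signals adjust their translation together through a pyrimidine-rich tract at the 5′ end of the mRNA. In male germ cells the sex chromosomes are silenced during the pachytene stage of meiosis, so X-linked ribosomal protein genes lose their template when the cells still make protein. Several autosomal copies, most of them made by reverse transcription of an X-linked parent, are expressed in the testis. The mouse core includes 4 X-linked genes. Rpl10 encodes a protein that joins the large subunit late and shapes its catalytic centre. Rpl39 encodes a very small protein at the exit tunnel for the nascent chain. Rpl36a encodes another large-subunit protein, and Rps4x encodes a small-subunit protein. Their autosomal relatives in the tables were Rpl10l, Rpl39l, Rpl36al and Rps4l. Rpl10l is required for male meiosis in mice, and Rpl39l is found mainly in male germ cells.

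The coding sequences of 2 such pairs are shown because the value of each row depends on whether its reads can be told from those of its relative. They were read from the GRCm38 genome with GENCODE vM21 gene models, and capitals mark the bases that differ within a pair. Rpl39 lies at chrX:37082704-37085127 on the minus strand with 3 exons in its transcript, and Rpl39l at chr16:10174310-10174462 on the plus strand, also with 3 exons. Their open reading frames of 153 nt were 85.0% identical, with 23 differing bases. The differences fell in 21 codons but altered only 3 of 51 residues.
Rpl39: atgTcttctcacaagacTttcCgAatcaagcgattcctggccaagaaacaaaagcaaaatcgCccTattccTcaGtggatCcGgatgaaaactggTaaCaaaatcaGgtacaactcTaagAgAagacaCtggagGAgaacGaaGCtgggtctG
Rpl39l: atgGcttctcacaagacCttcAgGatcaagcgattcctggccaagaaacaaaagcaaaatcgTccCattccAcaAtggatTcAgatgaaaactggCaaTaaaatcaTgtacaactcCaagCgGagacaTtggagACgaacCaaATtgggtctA

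Rpl10 lies at chrX:74271002-74273064 on the plus strand with 6 exons, whereas Rpl10l at chr12:66283716-66284357 on the minus strand has a single exon. Their 642-nt open reading frames were 84.7% identical, and 96 codons with 98 differing bases altered only 3 of 214 residues. The first 120 coding bases are given, with 18 differences.
Rpl10: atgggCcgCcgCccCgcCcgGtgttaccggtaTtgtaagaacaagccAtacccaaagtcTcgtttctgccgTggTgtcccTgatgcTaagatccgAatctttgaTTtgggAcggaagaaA
Rpl10l: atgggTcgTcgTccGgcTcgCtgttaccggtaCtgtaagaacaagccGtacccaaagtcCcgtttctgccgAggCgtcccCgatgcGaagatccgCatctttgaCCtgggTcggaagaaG

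The Rpl36a and Rpl36al frames, of 318 nt each, were 87.7% identical in bases and encoded the same protein, with 0 differing residues. In the annotation Rps4l is a transcribed processed pseudogene with 1 exon, against 7 exons for Rps4x, so it has no annotated coding frame.

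A contrasting pair, Rps27 and Rps27rt, is shown because reads from the coding part fit both of its rows. Rps27 has its coding bases at chr3:90212728-90213615 and Rps27rt at chr9:114982456-114982707, both on the minus strand, and the 252 bases were 100% identical, so a single sequence with no capitals stands for both.
Rps27 and Rps27rt: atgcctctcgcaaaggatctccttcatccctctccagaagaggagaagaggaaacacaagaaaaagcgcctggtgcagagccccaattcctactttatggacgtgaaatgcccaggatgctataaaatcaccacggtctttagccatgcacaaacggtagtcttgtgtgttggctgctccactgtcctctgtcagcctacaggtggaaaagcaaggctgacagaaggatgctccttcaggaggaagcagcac

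These differences were counted at the length of the reads. Every stretch of 75 bases in the annotated transcripts was compared across genes. Rpl10, Rpl36a, Rpl39, Rps4x, Rpl10l, Rpl36al, Rpl39l and Rps4l shared no such stretch with another gene that had a row in the tables. Rps27rt shared 90.3% of its stretches with Rps27, which in turn shared 42.4% of its own, and 15 of the 76 core genes shared some with another listed row, 8 of them more than 10%. Genes without a row held 71.1% of the stretches of Rpl10, 84.6% of Rpl36a, 52.9% of Rps4x and 7.62% of Rpl39. For the autosomal relatives this share was 0.316% in Rpl10l, 20.2% in Rpl36al, 0% in Rpl39l and 6.67% in Rps4l. Over the core, a median of 30.0% of the stretches lay in any other gene, listed or not. How the reads of a gene and its copies were assigned was not tested.

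The authors gave expression as TPM, RSEM's estimate of the share of all transcripts that came from a gene, corrected for transcript length and scaled so that libraries have equal sums. TPM keeps no sequencing depth, so the precision that depth gives is unknown. Rows at 0 numbered 6563 in control 1, 7646 in control 2, 6731 in KO-labelled 1 and 6518 in KO-labelled 2. The cause of the higher number in control 2 was not tested. In bulk RNA, fewer cells of a type and less RNA per cell cannot be told apart. Zfp541 itself did not fall in the libraries labelled Zfp541 KO. It stood at 112 and 72.2 TPM in controls 1 and 2, compared with 136 and 151 TPM in KO-labelled 1 and 2, and a gene-level value does not say from which exons the reads came. Directions below are therefore those between libraries as labelled.

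Most markers of spermatocytes were present in all 4 libraries, whereas Leydig and macrophage markers differed sharply between the controls. The 10 spermatocyte markers summed to between 5037 and 6760 TPM, a sum that joins unlike patterns. Sycp3, of the meiotic chromosome axis, stood at 1108, 1263, 2093 and 2196 TPM in control 1, control 2, KO-labelled 1 and KO-labelled 2, and Sycp1, Hormad1 and Meiob were likewise higher in both KO-labelled libraries than in either control. Ldhc, the germ-cell lactate dehydrogenase, stood at 3659, 1819, 768 and 1230 TPM. In the same order Piwil1 stood at 706, 244, 238 and 364 TPM, and Ccna1 at 48.2, 4.83, 2.20 and 1.80 TPM. The histone gene Hist1h1t lay between 1.00 and 2.55 TPM. Spermatogonial markers, 7 in number, summed to 376, 862, 569 and 522 TPM, and Uchl1 among them stood at 127, 559, 273 and 225 TPM. Summed TPM of the 5 Leydig markers was 2873 in control 1, 18.0 in control 2, 324 in KO-labelled 1 and 491 in KO-labelled 2, and that of the 3 macrophage markers was 416, 4.26, 374 and 277 in the same order. None of the Leydig or macrophage markers was at 0 in any library, and in control 2 none of them passed 10 TPM. Sertoli markers summed to between 141 and 239 TPM and myoid markers to between 3.10 and 10.9. Spermatid markers summed to between 13.9 and 28.7 TPM with 1 to 5 of the 6 at 0. Erythroid markers summed to between 18.8 and 275 TPM with 1 or 2 of the 4 at 0. In controls 1 and 2 the Sertoli sums were 141 and 214 TPM and the myoid sums 3.10 and 9.48. The erythroid sums there were 69.5 and 18.8 TPM.

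Ribosomal protein transcripts separated control 2 from the other libraries. The 94 rows together made up 7.86% of all TPM in control 1, 16.1% in control 2, 9.66% in KO-labelled 1 and 9.04% in KO-labelled 2. The share in control 2 was the highest, that in control 1 the lowest, and the KO-labelled libraries lay between the controls. The large subunit took 4.15%, 8.42%, 4.98% and 4.68% of TPM, and the small subunit 3.05%, 6.33%, 3.91% and 3.67%, in the same order. Of the 100 most abundant rows of a library, 35 were ribosomal protein rows in control 1, 55 in control 2, 50 in KO-labelled 1 and 46 in KO-labelled 2. The library with the highest share was also the library in which Leydig and macrophage markers were near absent. The summed spermatogonial markers (376, 862, 569 and 522 TPM) ranked the 4 libraries in the same order as the ribosomal share. Single markers did not all do so. Uchl1, Sohlh1 and Dmrt1 followed that order, and Uchl1 alone gave 559 TPM of the sum in control 2. Id4, Kit and Zbtb16 had their lowest values in control 2, at 72.9, 25.9 and 4.51 TPM, and Gfra1 had its highest in KO-labelled 2, at 1.73 TPM. The part of any of these cell types in this result was not tested.

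**Figure D1:**
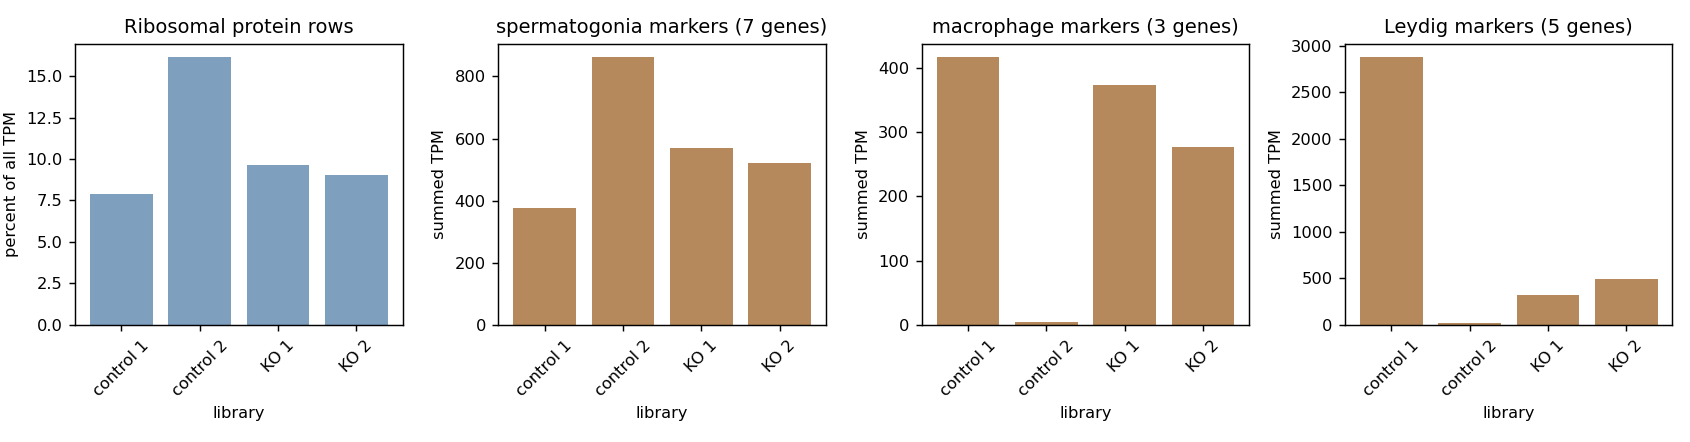
Percent of all TPM held by the 94 ribosomal protein rows (left) and summed TPM of 7 spermatogonial, 3 macrophage and 5 Leydig markers (the other panels), with a bar for each library on axes that start at 0. Control 2 has the highest ribosomal share (16.1%) and spermatogonial sum (862 TPM), and the lowest macrophage and Leydig sums (4.26 and 18.0 TPM). Uchl1 alone gives 559 TPM of that spermatogonial sum, while Id4, Kit and Zbtb16 are lowest in control 2.

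The core genes moved almost as a block from library to library. Their median level was 950 TPM in control 1, 1904 TPM in control 2, 1133 TPM in KO-labelled 1 and 1095 TPM in KO-labelled 2. Of the 76 core genes, 71 had their highest value in control 2 and 63 their lowest in control 1. Gene by gene, control 2 exceeded control 1 by a median of 0.99 on the log2 scale, a 1.99-fold difference, with 73 genes higher and 3 lower. Over all 14512 genes tested, the median of the same difference was -0.36. The KO-labelled libraries were close to each other, with a median core difference of -0.07 (SD over genes 0.10) against an SD of 0.41 over all genes tested. Against control 1 alone the core was higher in the KO-labelled libraries, by a median of 0.28 and 0.20, beside 0.17 and 0.13 over all genes tested. Against control 2 alone it was lower, with medians of -0.71 and -0.77, beside 0.45 and 0.43 over all genes tested.

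**Figure D2:**
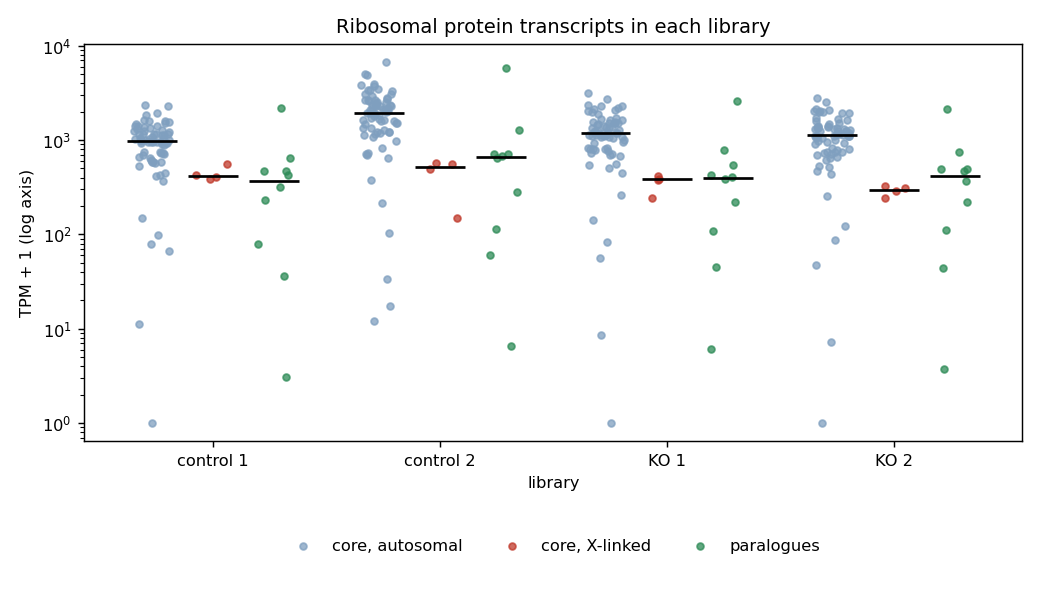
TPM + 1 on a log axis for the core genes on autosomes, the X-linked core genes and the 10 paralogues in each library, with a point for each gene and a black line at the median. The autosomal core sits highest in control 2, and the X-linked genes sit below the autosomal median in every library.

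Among the core, the most abundant rows by mean TPM were Rplp1, Rps14, Rpl41, Rplp0 and Rps28. Rplp1 encodes an acidic protein of the stalk that recruits translation factors, and stood at 2338 and 6698 TPM in the controls against 3184 and 2519 TPM in the KO-labelled libraries. Rplp0, which anchors that stalk, stood at 1858 and 3776 TPM against 2018 and 1991 TPM. Rps14, a protein of the small-subunit platform, stood at 1938 and 4984 TPM against 2703 and 2752 TPM. For these genes and for Rps28 (1484 and 3886 TPM against 2275 and 1948 TPM) both KO-labelled values fell between the controls. Rpl41, which encodes a very short basic peptide, stood at 2311 and 4902 TPM against 2280 and 2073 TPM, and its groups did not overlap, although control 1 and KO-labelled 1 were nearly equal.

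The 5 lowest core rows were Rpl26, Rps27, Rpl30, Rpl34 and Rps15a. Rpl26 was listed at 0 in control 1 and in both KO-labelled libraries and at 16.5 TPM in control 2. Rps27 stood at 10.4, 11.2, 7.56 and 6.16 TPM in control 1, control 2, KO-labelled 1 and KO-labelled 2. Rpl30 stood at 65.4, 32.9, 55.3 and 46.5 TPM, and Rpl34 at 78.6, 103, 82.6 and 86.4 TPM. All 4 of these rows shared stretches of sequence with another listed row that was far higher. The shared part was 26.9% for Rpl26 with Gm15772, 42.4% for Rps27 with Rps27rt, 18.4% for Rpl30 with Gm12191 and 8.35% for Rpl34 with Rpl34-ps1. Summing a gene with its listed copy, a step chosen after the values were seen, gave 1340, 3202, 1655 and 1523 TPM for Rpl26 with Gm15772, and 958, 1507, 1105 and 1162 TPM for Rpl30 with Gm12191. For Rps27 with Rps27rt the sums were 2178, 5749, 2606 and 2134 TPM, with control 2 again the highest. These sums lay in the range of the other core genes. Rps15a, at 96.4, 213, 141 and 122 TPM, shared 1.91% of its 6023 stretches with its top listed copy, Rps15a-ps6. That copy shared 36.1% of its own stretches with Rps15a and stood higher in each library, at 143, 278, 181 and 185 TPM. Rps15a-ps4 shared 18.7% of its stretches with Rps15a.

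Apart from this shared movement, a few core genes kept a different place in each library. Each gene was set against the core median of its own library on the log2(TPM + 1) scale. Over the 4 libraries the resulting deviation spanned a median range of 0.31, and 56 of the 76 genes spanned less than 0.50. The range was over 1 for 5 genes: Rpl26, Rps4x, Rpl30, Rpl10 and Rpl23. Rps4x lay at -1.15 in control 1, -3.67 in control 2, -2.23 in KO-labelled 1 and -2.18 in KO-labelled 2. Rpl10 lay at -0.78, -1.97, -1.45 and -1.77 in the same order. Control 1 was thus the library in which both X-linked genes stood closest to the rest of the core. Rpl23, whose product binds the p53 regulator MDM2 when free, lay at -0.01, -0.73, 0.24 and 0.30. Rpl5, which enters the ribosome with 5S rRNA and binds the same regulator, lay at -0.85, -1.46, -0.62 and -0.68. For both genes the KO-labelled libraries lay above both controls. This was not particular to them, as other core genes did the same, among them Rpl7 (0.13, -0.38, 0.24 and 0.29), Rpl22 and Rps12.

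**Figure D3:**
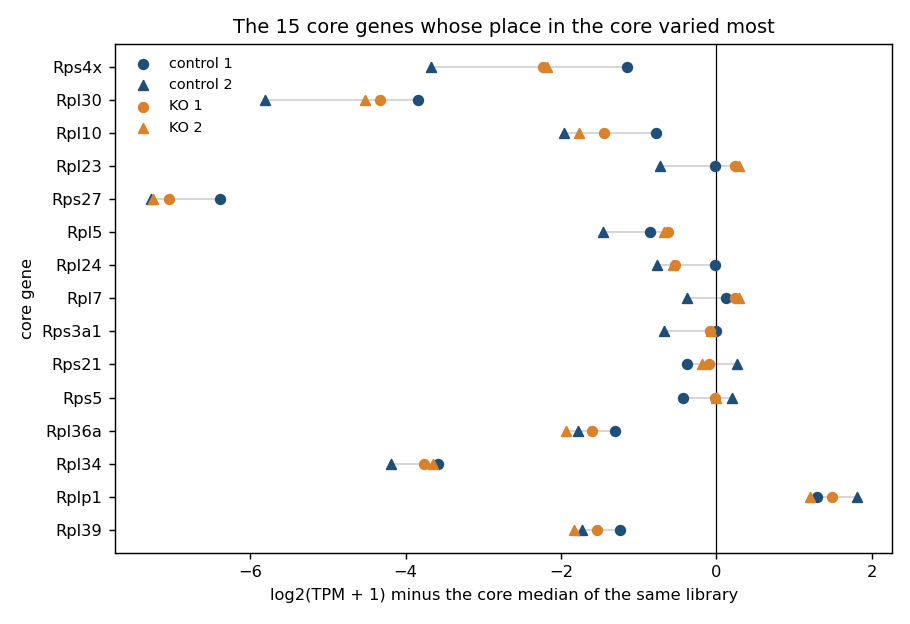
Deviation of log2(TPM + 1) from the core median of the same library, for the 15 core genes with the widest range after Rpl26, with a symbol for each library and a grey line over the range. Rps4x spans from -3.67 in control 2 to -1.15 in control 1, while for Rpl23, Rpl5 and Rpl7 both KO-labelled libraries lie to the right of both controls.

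The 4 X-linked core genes stood below the autosomal core in each library. Their median was 414 TPM against 973 TPM in control 1, 521 against 1938 TPM in control 2, 381 against 1182 TPM in KO-labelled 1, and 296 against 1117 TPM in KO-labelled 2. The ratio of these medians was 0.425 in control 1, 0.269 in control 2, 0.322 in KO-labelled 1 and 0.265 in KO-labelled 2. The highest and the second lowest ratios were both those of controls, so the groups overlapped. Sequence sharing with unlisted genes was high for 3 of these 4 genes, as given above.

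Rpl10 stood at 552 and 487 TPM in controls 1 and 2, compared with 415 and 321 TPM in KO-labelled 1 and 2. Its groups did not overlap, and it was 1 of only 3 core genes with the highest level in control 1, beside Rps4x and Rpl30. The log2 fold change, KO-labelled minus control, was -0.50 (SE 0.24, n = 2 per group) on the log2(TPM + 1) scale, with an adjusted p of 0.404 by limma with Benjamini-Hochberg adjustment. This was the lowest adjusted p of the 94 rows. Its autosomal copy Rpl10l stood at 466 and 681 TPM in the controls against 402 and 474 TPM in the KO-labelled libraries, with overlapping groups and a log2 fold change of -0.37 (SE 0.28, limma adjusted p = 0.567). Without control 1 this value was -0.64, and without control 2 it was -0.095.

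The ratio of Rpl10l to Rpl10 was 0.844 in control 1, 1.40 in control 2, 0.967 in KO-labelled 1 and 1.48 in KO-labelled 2. The parent was thus the more abundant of the pair in the first library of each group and the copy in the second. The mean log2 ratio was 0.12 ± 0.52 (SD, n = 2) in the controls and 0.26 ± 0.43 (SD, n = 2) in the KO-labelled libraries, a difference of 0.14 (exact permutation test, two-sided, p = 0.667). With 2 libraries in each group the smallest p this test can give is 0.333, so no ratio could pass a threshold of 0.05. The difference turned to -0.23 without control 1 and to -0.17 without KO-labelled 2.

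Rpl39 stood at 402 and 575 TPM in controls 1 and 2, compared with 389 and 308 TPM in KO-labelled 1 and 2. The groups did not overlap, but control 1 and KO-labelled 1 lay close together (log2 fold change -0.47, SE 0.28, limma adjusted p = 0.482). Rpl39l stood at 421 and 714 TPM against 422 and 487 TPM, with control 2 the highest and the groups overlapping (-0.27, SE 0.33, limma adjusted p = 0.719). Without control 2 the value for Rpl39l turned to 0.11, and without control 1 those for Rpl39 and Rpl39l were -0.73 and -0.65. The copy exceeded the parent in each of the 4 libraries, by ratios of 1.05, 1.24, 1.09 and 1.58. The log2 ratio averaged 0.19 ± 0.17 (SD, n = 2) in the controls and 0.39 ± 0.38 (SD, n = 2) in the KO-labelled libraries, and the difference of 0.20 was smaller than the spread between the KO-labelled libraries (exact permutation test, two-sided, p = 0.667) and turned to -0.07 without KO-labelled 2.

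Rpl36a and Rpl36al, which encode the same protein, were both lower in each KO-labelled library than in either control, and neither passed the test (limma adjusted p = 0.471 and 0.475). Rpl36a stood at 385 and 554 TPM in the controls against 373 and 285 TPM in the KO-labelled libraries, and Rpl36al at 639 and 703 TPM against 543 and 496 TPM. Neither gene's groups overlapped, and the ratio of copy to parent was 1.66, 1.27, 1.46 and 1.74 (exact permutation p = 0.667). Rps4x stood at 426 and 148 TPM in controls 1 and 2, compared with 240 and 241 TPM in KO-labelled 1 and 2, so that both KO-labelled values lay inside the span of the controls. Rps4l ran the other way between the controls, at 316 and 641 TPM, with 384 and 363 TPM in the KO-labelled libraries. The Rps4l to Rps4x ratio was 0.742 in control 1 and 4.33 in control 2, against 1.60 and 1.51 (exact permutation p = 1), the widest spread between controls of any of these 4 pairs.

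**Figure D4:**
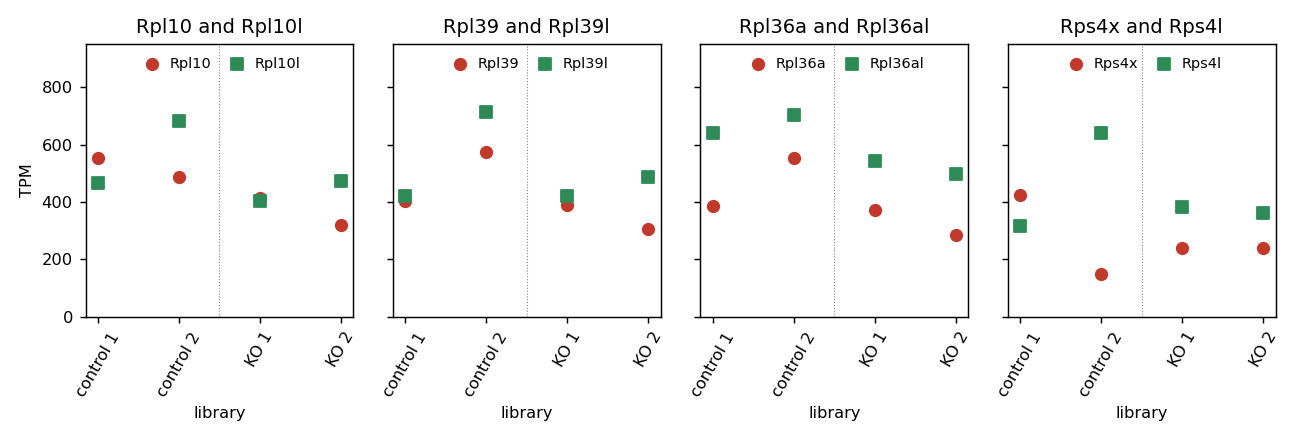
TPM of the 4 X-linked core genes (red circles) and their autosomal relatives (green squares) in each library, on linear axes that start at 0. Rpl39l and Rpl36al lie above their parents in all 4 libraries, Rpl10l does so in control 2 and KO-labelled 2, and Rps4l in every library but control 1.

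Neither Rpl10l nor Rpl39l was a minor row in these cells, and neither stood among the abundant core genes. Of the 76 core genes, between 63 and 67 lay above Rpl10l in the 4 libraries, and between 63 and 66 lay above Rpl39l. Their parents held similar places, with between 61 and 68 core genes above Rpl10 and 66 or 67 above Rpl39. All 10 paralogue rows together made up 0.483% of TPM in control 1, 1.02% in control 2, 0.550% in KO-labelled 1 and 0.507% in KO-labelled 2, with Rps27rt the most abundant of them in each library.

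The other paralogues covered a wide range of levels. Rps27rt stood at 2167 and 5738 TPM in the controls against 2599 and 2128 TPM in the KO-labelled libraries, and is to be read with Rps27 as above. Rps27l, a p53-responsive relative of Rps27, stood at 472 and 1261 TPM against 776 and 750 TPM. Rpl22l1, a relative of the RNA-binding protein gene Rpl22, stood at 232 and 282 TPM against 222 and 220 TPM, without overlap (log2 fold change -0.21, SE 0.20, limma adjusted p = 0.635). Rpl22 itself stood at 150 and 379 TPM against 262 and 252 TPM, and the ratio of Rpl22l1 to Rpl22 was 1.54 in control 1 but 0.745, 0.846 and 0.871 in the other libraries (exact permutation p = 1). Rpl7l1, a factor of large-subunit assembly related to Rpl7, stood at 79.1, 112, 107 and 110 TPM, far below Rpl7 at 1040, 1468, 1335 and 1341 TPM. Rpl37rt, annotated as a transcribed processed pseudogene, stood at 35.5, 59.0, 44.0 and 43.2 TPM. Its ratio to Rpl37 lay between 0.0804 and 0.0834 in all 4 libraries. Rpl37rt shared 29.0% of its stretches with Rpl37, which in turn shared 25.8% of its own. How reads were divided between these rows was not tested, so the ratio may not be that of their transcripts. Rpl3l, the relative of Rpl3 known from striated muscle, was nearly absent, at 2.08, 5.59, 5.07 and 2.76 TPM against 586, 979, 707 and 651 TPM for Rpl3.

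No ribosomal protein gene passed the test between the groups. In limma on log2(TPM + 1), 0 of the 94 rows had an adjusted p under 0.05, and 0 had an unadjusted p under 0.05 in either direction. Over all 14512 genes tested, 0% passed the adjusted threshold, the lowest adjusted p being 0.310, while 10.7% were higher and 3.73% lower in the KO-labelled libraries at an unadjusted p under 0.05. All 94 rows passed the filter of a mean of at least 1 TPM. The value of both KO-labelled libraries lay above both controls for 1 row, Rpl23, against 38.6% of all genes tested, and below both controls for 11 rows, which is 11.7% of the 94 against 12.1% of all genes tested. The 11 rows were Rpl41, Rps27 (whose sum with Rps27rt overlapped), Rpl10, Rpl36a, Rpl39, Rpl24, Rps13, Rpl36al, Rpl29, Rps19-ps3 and Rpl22l1. They include 3 of the 4 X-linked core genes and 5 of the 72 autosomal ones.

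The median log2 fold change of the core, KO-labelled minus control, was -0.26, against a median of 0.28 over all genes tested. It was -0.28 for the large subunit and -0.21 for the small subunit. Of the 76 core genes 68 were below 0 and 8 above. This direction rested on control 2. With control 2 left out the core median was 0.24, and with control 1 left out it was -0.73. In those fits, which assume that a lone control varies like the other libraries, 11 of 93 rows (11.8%) were higher and 1 (1.08%) lower at a limma adjusted p under 0.05 without control 2, against 16.4% and 13.5% of all genes tested. Without control 1, 2 of 94 rows (2.13%) were higher and 78 (83.0%) lower, against 40.5% and 10.3% of all genes. Centring each library on its typical gene (median-ratio scaling) shifted the median of all genes from 0.28 to -0.01. Relative to that median the core lay at -0.54 with the values as deposited, -0.58 after this scaling and -0.11 after quantile normalization. On the same measure it lay at 0.09 without control 2 and at -1.18 without control 1.

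The largest differences in the core, by fitted fold change, did not pass the test. Rpl26, with a single value above 0, is not read further. Rps27 had a log2 fold change of -0.59 (SE 0.35) at a level of 6.16 to 11.2 TPM, while its sum with Rps27rt overlapped between the groups. Rpl41 had a value of -0.63 (SE 0.50), Rpl10 of -0.50 (SE 0.24) and Rpl36a of -0.50 (SE 0.29), with limma adjusted p between 0.404 and 0.582. In the other direction Rpl23 stood at 943 and 1150 TPM in controls 1 and 2, compared with 1339 and 1347 TPM in KO-labelled 1 and 2 (0.37, SE 0.27, limma adjusted p = 0.553). Under median-ratio scaling its value was 0.041, and no row was left with both KO-labelled values above both controls. Rpl5 stood at 527 and 690 TPM against 735 and 685 TPM (0.23, SE 0.25, limma adjusted p = 0.682). The sign for Rpl5 turned to -0.09 under median-ratio scaling. Rps12, Rpl7 and Rpl30 completed the 5 highest, at 0.11, 0.11 and 0.12, and each had a negative value under that scaling.

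**Figure D5:**
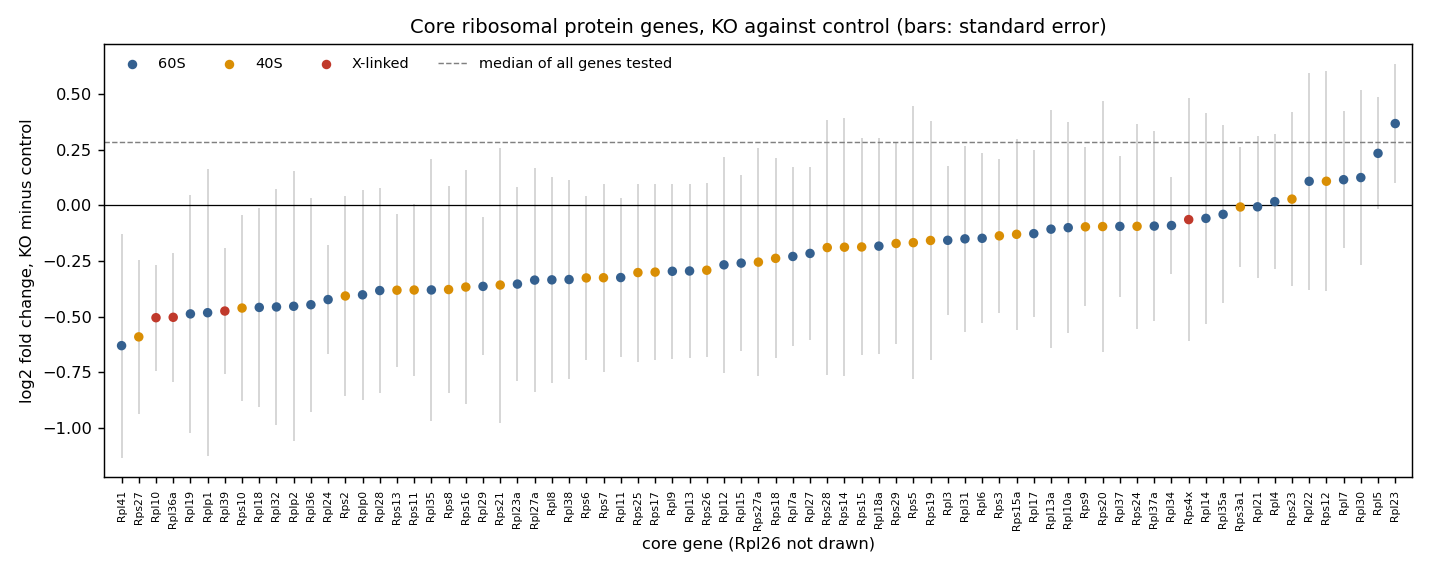
Log2 fold change (KO-labelled minus control, on log2(TPM + 1)) with standard error for 75 core genes in order of size, coloured by subunit and with the X-linked genes in red. Most values lie below 0 and below the median of all genes (dashed line, 0.28), with bars that reach past 0 for most of them, and without control 2 the core median is 0.24.

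For the X-linked core the median log2 fold change was -0.49, and for the autosomal core it was -0.25. The difference of -0.24 was smaller than the pooled spread within groups of 0.36. Without control 1 it was 0.16, and without control 2 it was -0.68. Leaving out KO-labelled 1 or 2 gave -0.38 and -0.10. Rps4x had a value of -0.06 with all libraries, 0.69 without control 1 and -0.82 without control 2.

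Other X-linked genes with an autosomal testis copy were read in the same way. Pgk2, the testis phosphoglycerate kinase, had a ratio to Pgk1 of 1.30 and 0.297 in the controls and of 0.0273 and 0.0495 in the KO-labelled libraries. For the centrin genes Cetn1 and Cetn2 the ratio was 22.4 and 5.56 against 0.759 and 1.32, and for the pyruvate dehydrogenase genes Pdha2 and Pdha1 it was 11.1 and 15.9 against 6.54 and 8.00. In these 3 pairs the KO-labelled ratios lay below both controls (exact permutation p = 0.333 for each, the smallest possible). Utp14b had a ratio to Utp14a of 1.17 and 0.626 against 1.58 and 1.66, the opposite order. The ratios of Cstf2t to Cstf2 and Rbmxl2 to Rbmx overlapped between the groups, as did those of Rpl10l, Rpl39l, Rpl36al and Rps4l to their parents. G6pd2 was nearly absent, at 0 and 0.03 TPM in the controls against 0.14 and 0.23 TPM, so its ratio to G6pdx is not read. Whether the ribosomal protein pairs differ from the other pairs was not tested.

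The 2 ribosomal protein genes read beside the naming rule also had their highest value in control 2. Fau, which encodes a ubiquitin-like domain fused to a small-subunit protein, stood at 717 and 1516 TPM in the controls against 758 and 688 TPM in the KO-labelled libraries. Rpsa, which encodes a small-subunit protein also known as a laminin receptor, stood at 471 and 1116 TPM against 552 and 499 TPM. The groups overlapped for both genes. Their log2 fold changes were -0.53 and -0.47, with 0 of 2 at an unadjusted p under 0.05 in limma. Without control 2 the values were 0.01 and 0.15.

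Other genes whose mRNAs share the pyrimidine-rich 5′ tract, most but not all of them for translation factors, were read from a list of 15 genes. Eef1a1, the elongation factor that delivers aminoacyl-tRNA, stood at 4903, 5304, 5099 and 5047 TPM in control 1, control 2, KO-labelled 1 and KO-labelled 2. Eef2, which drives translocation, stood at 1236, 1309, 1172 and 1128 TPM. Picked after their values were seen, Gnb2l1 stood at 537 and 1080 TPM in controls 1 and 2, and Eef1g at 467 and 771 TPM. In the same order Pabpc1 stood at 2836 and 1602 TPM and Hnrnpa1 at 80.6 and 42.2 TPM. Only Pabpc1, Hnrnpa1, Eif4b and Nap1l1 were lower in control 2 than in control 1. All others of the list were highest in control 2. Of the 15 genes 4 were above 0 and 11 below, with a median log2 fold change of -0.15 beside the 0.28 of all genes tested. The 4 included Nap1l1 and Hnrnpa1, which do not encode translation factors. At an unadjusted p under 0.05 in limma 1 (6.67%) was higher and 0 lower, against 10.7% and 3.73% of all genes tested. It was Eif4b, chosen after its values were seen, at 168 and 155 TPM against 282 and 306 TPM (0.86, SE 0.18, limma adjusted p = 0.310). Both KO-labelled values lay above both controls for 3 (20%) and below for 5 (33.3%), against 38.6% and 12.1% of all genes tested.

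Genes whose products build ribosomes were read from a list of 40 factors of ribosomal DNA transcription, rRNA processing and subunit assembly. Of these, 31 had a log2 fold change above 0 and 9 below, with a median of 0.33 beside the 0.28 of all genes tested. At an unadjusted p under 0.05 in limma 9 (22.5%) were higher and 0 lower, against 10.7% and 3.73% of all genes tested, and 0 passed the adjusted threshold. Ncl, which encodes the nucleolar protein nucleolin and was picked after its values were seen, stood at 152 and 158 TPM in controls 1 and 2, compared with 355 and 344 TPM in KO-labelled 1 and 2 (1.17, SE 0.17, limma adjusted p = 0.310). Both KO-labelled values lay above both controls for 24 of the 40 (60%) and below for 4 (10%), against 38.6% and 12.1% of all genes tested.

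The 7 rows with pseudogene names ranged from Rpl34-ps1, at 1264, 2463, 1507 and 1349 TPM in control 1, control 2, KO-labelled 1 and KO-labelled 2, to Rps19-ps3, at 11.3, 11.9, 10.9 and 7.74 TPM. Their median log2 fold change was -0.30, with 6 below 0 and 1 above. Rps19bp1 stood at 63.1, 126, 85.3 and 71.2 TPM. In these rows too control 2 was the highest library, apart from Rps15a-ps4, at 48.5, 84.7, 103 and 54.7 TPM.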

How the data were processed

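RNA was extracted from GFP-positive cells of 4 testes, and poly(A)-selected libraries were sequenced as single-end reads of 75 nt. According to the submitters' processing notes and the paper's methods, reads were trimmed with Trim Galore 0.5.0 and cutadapt 1.16, aligned to mm10 with STAR 2.6.0a and quantified with RSEM 1.3.1, which shares reads that match several transcripts among them by estimation. The authors deposited TPM per gene for each library, a unit with the same sum in every library that keeps no depth. No value of the authors' own comparison was used, and their differential test on counts was not repeated.

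Samples were grouped by the labelled genotype. Values were fitted with limma 3.58.1 in R 4.3.3 on log2(TPM + 1) with a mean-variance trend, for rows that averaged 1 TPM or more over the libraries, and p-values were adjusted over all 14512 genes tested by the method of Benjamini and Hochberg. The procedure was tested on simulated data. Ratios were compared by exact permutation. With 2 libraries in each group, limma set each difference against the spread between these testes. That spread was drawn towards a trend fitted over all genes tested. Sequences and 75-base matches were taken from GRCm38 and GENCODE vM21, and 93 of the 94 rows were found there. Named genes were every paralogue with its parent, the X-linked core, the 5 highest, 5 lowest, 5 most positive and 5 most negative core genes, ribosomal proteins outside the naming rule, label checks, and X-linked genes with autosomal copies. A gene of this list is not reported here. Members and lists were chosen with earlier results of these data known. Alternatives covered the pseudocount, filter, scaling, variance trend, a replicate block, a false discovery rate of 0.1 and leaving out each library. Same-numbered libraries of the groups deviated from their group means with a correlation of -0.16, and the labels do not tie them to a shared animal or day.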

Additional observations from a re-analysis of the deposited data

How the results depend on the processing

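Depth is unknown for TPM and no interval from it can be given. The direction of the core depends on which control is read. The count of genes past an adjusted p under 0.05 in limma was 0 with pseudocounts of 0.1 and 5, without the filter, under both scalings, after rescaling TPM without the ribosomal rows, without the variance trend and at a false discovery rate of 0.1. The replicate block also gave 0 calls and a core median of -0.26. As the deviations of same-numbered libraries had a weak negative correlation (-0.16), a crossed replicate block was added after seeing the data. It gave 7 higher and 80 lower genes over the whole table but 0 ribosomal rows.

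The number of ribosomal rows whose groups did not overlap, 1 higher and 11 lower, was 0 and 24 under median-ratio scaling (23.0% and 22.4% of all genes), 8 and 8 under quantile normalization (27.8% and 19.4%) and 1 and 8 after rescaling TPM without them (36.6% and 13.2%). Leaving out each library in turn gave 0 to 5759 higher and 0 to 1981 lower genes, 0 to 11 higher and 0 to 78 lower ribosomal rows, 1 to 75 ribosomal rows higher and 13 to 89 lower without overlap (75 and 13 of 93 without control 2, against 52.6% and 36.3% of all genes, and 3 and 89 of 94 without control 1, against 66.1% and 24.9%), and -0.68 to 0.16 for the X-linked minus autosomal median. The calls came only from the fits without a control, in which the remaining control is assumed to vary like the other libraries. Rpl26 could not be fitted without control 2.

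None of the single genes passed the test with all libraries, and the sign of several turned with the setting. Under median-ratio scaling it turned for Rpl3l (-0.18), Rpl7 (-0.21), Rpl7l1 (-0.12), Rpl22 (-0.22), Rpl30 (-0.19), Rps12 (-0.22), Rpl5 (-0.092), Pdha1 (-0.16), Utp14a (-0.21) and Rbmx (-0.080), and under quantile normalization for Rpl3l (-0.15), Rps27l (0.19), Rpl37 (0.058), Rps28 (0.055), Rps14 (0.21), Rpl30 (-0.16), Pdha1 (-0.18), Utp14a (-0.16) and Rbmx (-0.063). Over the fits that left out a library the log2 fold change ran from -0.65 to 0.11 for Rpl39l, -0.53 to 0.21 for Rpl3, -0.46 to 0.63 for Rpl3l, -0.13 to 0.36 for Rpl7, -0.049 to 0.45 for Rpl7l1, -0.56 to 0.77 for Rpl22, -0.72 to 0.69 for Rps27l, -0.82 to 0.69 for Rps4x, -0.78 to 0.24 for Rps4l, -1.29 to 0.12 for Rps27rt, -0.45 to 0.26 for Rpl37, -0.43 to 0.29 for Rpl37rt, -0.88 to 0.50 for Rps28, -0.91 to 0.11 for Rplp0, -0.87 to 0.49 for Rps14, -1.24 to 0.28 for Rplp1, -0.36 to 0.61 for Rpl30, -0.29 to 0.10 for Rpl34, -0.70 to 0.44 for Rps15a, -0.45 to 0.67 for Rps12, -1.09 to 0.15 for Rpsa, -1.07 to 0.012 for Fau, -0.25 to 1.59 for Rec8, -0.40 to 0.68 for Pdha1, -0.41 to 0.34 for Cetn2, -0.082 to 0.54 for Rbmx and -0.30 to 0.26 for G6pdx. The cause was not tested.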

Other observations

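Mitochondrial ribosomal proteins, which translate the few mRNAs of the mitochondrial genome and are encoded in the nucleus by separate genes, were read beside the cytosolic set. Of 77 rows, 26 had a log2 fold change (KO-labelled minus control) above 0 and 51 below, with a median of -0.12 against 0.28 over all genes tested. In limma 0 passed an adjusted p under 0.05, and at an unadjusted p under 0.05 1 (1.3%) was higher and 2 (2.6%) lower, against 10.7% and 3.73% of all genes tested. Both KO-labelled values lay above both controls for 10 rows (13%) and below for 20 (26%), against 38.6% and 12.1% of all genes tested.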
